A study of Mus musculus with 8 samples.

Results

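The genes described here encode the cytosolic ribosomal proteins, the protein subunits of the ribosome that translates nuclear mRNAs. They were taken as the rows whose symbol is Rpl or Rps followed by a number (with or without a final a), Rplp0, Rplp1, Rplp2 or Rpsa. This rule found 75 of the 20278 genes listed in the deposited files, 46 for the large (60S) subunit and 29 for the small (40S) subunit. All 75 passed the filter of at least 10 counts in at least 2 samples that left 15287 genes to be tested. Cytosolic ribosomal protein rows with other symbols, such as Rps4x, Rps3a1, Fau and the pseudogene copies, are given separately.

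Poly-A RNA was sequenced from N33, 1 embryonic stem cell (ESC) line from C57BL/6 mice, in 4 culture conditions with 2 samples each. G cells grew in serum on gelatin without feeder cells, and F cells grew in serum on mouse embryonic fibroblasts (MEFs) arrested with mitomycin C. F2i cells grew on the same kind of feeder in serum with 2i, a pair of inhibitors of Gsk3β (CHIR99021) and Mek (PD0325901). NB2i cells grew in N2B27, a defined medium, with 2i on poly-L-ornithine and laminin and had neither serum nor feeder. All 4 conditions contained leukemia inhibitory factor at 1000 U/ml, and the serum medium held 20% fetal bovine serum. The inhibitor doses are stated for NB2i, 3 µM for CHIR99021 and 1 µM for PD0325901, and not separately for F2i. According to the sample labels, feeders were removed by their adherence to the dish, and their markers were still measured in F and F2i. F against G therefore addresses the feeder, F2i against F addresses 2i on feeders in serum, and NB2i against F2i addresses the loss of feeder and serum together under 2i. NB2i against G compares both feeder-free cultures, which differ in medium, coating and inhibitors.

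Each ribosome carries a single copy of nearly every ribosomal protein, and cells make these proteins in step with rRNA. Their mRNAs begin with a cytosine followed by a run of pyrimidines, the terminal oligopyrimidine (TOP) tract, through which mTORC1 and Larp1 control their translation. Because the mRNAs are stable and abundant, translation is the step best known to change with nutrients and growth factors, which poly-A RNA-seq does not measure. The genes belong to the most highly expressed of ESCs, which divide fast.

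The start of several of these genes is shown because the TOP tract lies there. Promoter windows of RefSeq on build GRCm38.p6 were found for 55 of the 75 genes by gene ID. The stretch printed runs from 60 bases before the annotated transcription start to 30 bases from it, on the strand of the gene, and capitals mark the longest run of a C followed by at least 4 C or T that starts within 20 bases of the annotated start. Rps12, Rps15a, Rps24 and Rpl14 had the largest rises in NB2i against G among genes with a window. Rpl11 was the 1 gene called lower there, Rplp2 and Rpl38 show a tract at or just before the annotated start, and Rpsa shows none in that range. The windows lie at chr10:23787180-23787269 (minus strand) for Rps12, chr7:118116118-118116207 (minus) for Rps15a, chr14:24490618-24490707 (plus) for Rps24, chr9:120571457-120571546 (plus) for Rpl14, chr7:141447591-141447680 (plus) for Rplp2, chr11:114668520-114668609 (plus) for Rpl38, chr4:136053364-136053453 (minus) for Rpl11 and chr9:120127706-120127795 (plus) for Rpsa.
Rps12: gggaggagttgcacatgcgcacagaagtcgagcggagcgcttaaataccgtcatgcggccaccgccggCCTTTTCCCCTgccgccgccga
Rps15a: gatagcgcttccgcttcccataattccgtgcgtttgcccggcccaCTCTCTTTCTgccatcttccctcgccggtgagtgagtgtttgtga
Rps24: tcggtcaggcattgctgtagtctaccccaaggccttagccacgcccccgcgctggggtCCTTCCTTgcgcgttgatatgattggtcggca
Rpl14: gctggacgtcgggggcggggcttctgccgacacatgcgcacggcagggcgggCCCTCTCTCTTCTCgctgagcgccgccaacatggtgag
Rplp2: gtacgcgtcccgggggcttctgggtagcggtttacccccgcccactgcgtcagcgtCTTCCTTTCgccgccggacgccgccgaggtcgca
Rpl38: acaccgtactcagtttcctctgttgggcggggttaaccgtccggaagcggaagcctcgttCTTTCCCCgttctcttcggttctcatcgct
Rpl11: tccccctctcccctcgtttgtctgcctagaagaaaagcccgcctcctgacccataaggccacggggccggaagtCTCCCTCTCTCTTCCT
Rpsa: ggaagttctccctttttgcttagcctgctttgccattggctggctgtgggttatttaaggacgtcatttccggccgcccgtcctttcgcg

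A run of this kind began exactly at the annotated start in 12 of the 55 windows (21.8%), against 2.49% of all 27025 promoter windows. Runs of a C followed by at least 7 C or T starting within 20 bases of the start were found in 27 of 55 (49.1%) against 14.2% of all windows, and those of at least 4 in 43 of 55 (78.2%) against 48.8%. The letters CTTTC in the same 40 bases occurred in 17 of 55 (30.9%) against 5.89%. Within the full window of 250 bases before and 50 bases after the start, on both strands, CCGGAAG (the core bound by Ets factors such as Gabpa) was found in 22 of 55 (40%) against 9.12%, GGGCGG (the core of a GC box) in 32 of 55 (58.2%) against 35.9%, AAGATGGC (the core bound by Yy1) in 4 of 55 (7.27%) against 2.88%, and TATAAA in 5 of 55 (9.09%) against 14.2%. The sequence of Rpl38 printed above contains CCGGAAG and GGGCGG, that of Rpl11 contains CCGGAAG, and that of Rps15a contains AAGATGGC on the other strand. GGGCGG is also in the printed sequence of Rpl14 and, on the other strand, in those of Rplp2 and Rpsa. These matches are descriptions of letters and not of bound sites.

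The ribosomal protein genes were among the most abundant mRNAs in every sample. Their mean level over the 8 samples had a median of 1212 FPKM (fragments per kilobase of transcript, scaled to the depth of the sample, so a level per length), against 6.84 for all genes tested, and 49 of the 75 were above 1000 FPKM. Of the 75, 72 were among the 200 genes with the highest mean FPKM. Rps2, a small-subunit protein near the mRNA entry channel, was highest at 3115 FPKM, followed by Rplp1 of the stalk, Rpl23a at the exit of the peptide tunnel, Rpl41, the smallest ribosomal protein, and Rps12. Rps15a was lowest at 69.9 FPKM, and Rps20, Rpl22, Rpl21 and Rpl37 were the next lowest. The deposited length of a gene, by which FPKM is divided, was 5158 bases for Rps15a and 3446 for Rps20 against a median of 708 over the 75, so the low FPKM of both goes with long deposited transcripts. For 18 of the 75 the expected counts were not whole in any sample, which means that reads were divided between rows.

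All 8 ESC markers checked were at 1 FPKM or more in every sample, with summed levels from 3500 to 4070 FPKM. Pou5f1 and Sox2, the core pluripotency factors, were from 569 to 765 and from 215 to 265 FPKM. Other ESC markers moved more. Utf1 was at 497 and 459 FPKM in G, 374 and 386 in F, 79.4 and 83.7 in F2i, and 47.55 and 46.65 in NB2i. Nanog was at 208 and 199 FPKM in G, 271 and 269 in F, 465 and 482 in F2i, and 295 and 304 in NB2i. In NB2i against G, 5 of the 8 (62.5%) were called higher and 3 (37.5%) lower, against 36.9% and 35.4% of all genes tested. Primitive endoderm markers also moved with the conditions, with summed levels of 6 genes at 13.4 and 12 FPKM in G, 22.6 and 23.7 in F, 11.6 and 11.3 in F2i, and 23.8 and 23.3 in NB2i. In both samples of a condition, 3 of the 6 were at 1 FPKM or more in G and F2i, 5 in F and 2 in NB2i. All 6 were called higher in F against G and 5 lower in F2i against F. In NB2i against F2i 2 were called higher and 3 lower, beside 33.3% and 30.8% of all genes tested, and in NB2i against G 2 and 2. The part of these markers in the results was not tested. Fibroblast markers moved too. The summed FPKM of 14 such genes was 129 and 123 in G, 529 and 549 in F, 1091 and 1069 in F2i, and 419 and 397 in NB2i. In NB2i this sum came mostly from Fn1 and Vim, and Lum, Dcn, Postn and S100a4 were listed at 0 in both NB2i samples. Col1a1, the chain of type I collagen, was at 2.59 and 2.47 FPKM in G, 66.0 and 69.6 in F, 248 and 239 in F2i, and 0.55 and 0.51 in NB2i. The part of feeder RNA in the ribosomal protein levels of F and F2i was not tested, and in bulk RNA fewer cells of a type and less RNA per cell cannot be told apart. The samples held between 20129641 and 20664488 expected counts each.

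The 75 genes together took a larger share of the counts in NB2i than in any other condition. Their share of all expected counts was 7.27% and 6.85% in G, 6.97% and 6.66% in F, 6.92% and 7.03% in F2i, and 7.64% and 7.62% in NB2i. Both NB2i samples lay above the other 6, and the ranges of G, F and F2i overlapped. The means were 7.06% ± 0.30 in G, 6.82% ± 0.22 in F, 6.98% ± 0.08 in F2i and 7.63% ± 0.01 in NB2i (SD, n = 2). With 2 samples against 2, the design cannot give an exact permutation p below 0.33, so this order is given without a test. Measured as a share of the summed FPKM the 75 genes made up 19.3% ± 0.49 in G, 18.9% ± 0.49 in F, 19.3% ± 0.08 in F2i and 20.6% in both NB2i samples.

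The balance between the subunits also differed by condition. Counts of the 46 large-subunit genes were 1.695 and 1.696 times those of the 29 small-subunit genes in G, 1.648 and 1.658 times in F, 1.644 and 1.652 times in F2i, and 1.576 and 1.604 times in NB2i. G was above all other samples and NB2i below all others, while F and F2i overlapped. The small-subunit genes took from 2.51% to 2.70% of counts in the 6 samples of G, F and F2i and 2.97% and 2.93% in NB2i. The large-subunit genes took 4.57% and 4.31% in G against 4.68% and 4.70% in NB2i.

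**Figure D1:**
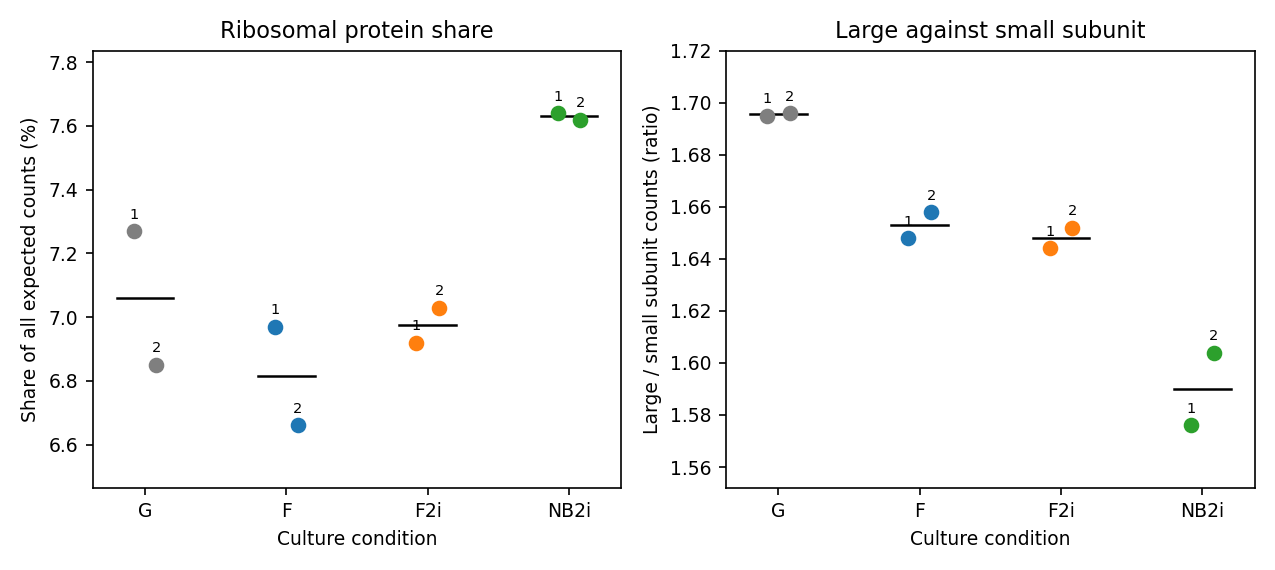
Share of all expected counts taken by the 75 ribosomal protein genes (left, in %) and the ratio of large-subunit to small-subunit counts (right) in each culture condition. Points are the 2 samples, numbered by replicate, and lines are their means; the axes do not start at 0. Both NB2i samples have the highest shares (7.64% and 7.62%) and the lowest ratios (1.576 and 1.604).

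The replicates of G and of F differed in these genes mostly in 1 direction. G replicate 1 was above G replicate 2 in 75 of 75 genes, with a median difference of 0.093 on the log2 scale of counts scaled to library size (CPM) after TMM normalization. F replicate 1 was above F replicate 2 in 61 of 75, with a median of 0.062. In F2i and NB2i the medians were -0.019 and 0.014, and 28 and 43 of the 75 genes were higher in replicate 1. Other tested genes with a deposited length under 1000 bases shifted the same way, by a median of 0.089 in G and 0.042 in F, whereas those of 1000 bases or more had medians of -0.002 and -0.001. Of the 75 ribosomal protein genes, 56 were under 1000 bases. The part of this shift in the comparisons with G and F was not tested, and counts without each replicate are given with them. Other genes under 1000 bases had median log2 fold changes of -0.074 in F against G and 0.007 in F2i against F. Their medians were 0.088 in NB2i against F2i and 0.032 in NB2i against G. In the same order, the 75 genes had medians of -0.036, 0.087, 0.124 and 0.186, and the longer genes 0.008, -0.005, 0.009 and 0.004. The part of gene length in these changes was not tested.

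**Figure D2:**
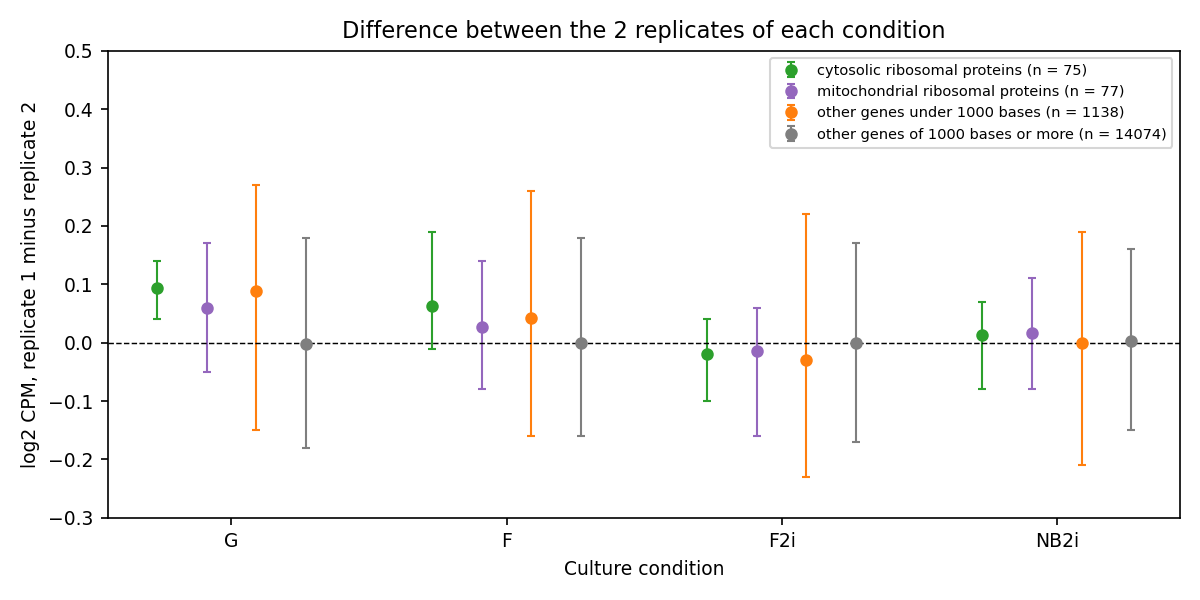
Difference between the 2 replicates of each condition in log2 CPM, for the 75 cytosolic and 77 mitochondrial ribosomal protein genes and for other genes by deposited length. Points are medians over genes and bars run from the 10th to the 90th percentile over genes. The cytosolic ribosomal protein genes of G sit at a median of 0.093, beside 0.089 for other genes under 1000 bases and -0.002 for longer ones.

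Between F and G the levels of the ribosomal protein genes differed little. In F, 1 of the 75 genes was called higher than in G and 5 were called lower (edgeR quasi-likelihood test with a Benjamini-Hochberg adjusted p under 0.05), or 1.3% and 6.7%. Of all genes tested, 21.7% were called higher and 18.5% lower, and 7.24% were called with a change of at least 2-fold in either direction. None of the 75 changed by 2-fold, and log2 fold changes were from -0.23 to 0.25 with a median of -0.04 against 0.00 for all genes. A positive log2 fold change was found for 16 of the 75. All 5 genes called lower were of the large subunit.

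Rpl13, a protein of the surface of the large subunit, was at 1730.0 and 1587 FPKM in G and 1435 and 1348 in F. Both F samples were below both G samples (log2 fold change -0.23, SE 0.047, adjusted p = 0.00051). Rpl36, also of the large subunit, was at 603 and 542 FPKM in G and 508 and 455 in F, again without overlap (log2 fold change -0.23, SE 0.057, adjusted p = 0.0027). Rpl11, which with Rpl5 and 5S rRNA can bind the p53 ubiquitin ligase Mdm2, was at 1324 and 1208 FPKM in G and 1131 and 1044 in F. It fell by 0.20 on the log2 scale (SE 0.047, adjusted p = 0.0021). Rpl31, near the exit of the peptide tunnel, fell by 0.15 (adjusted p = 0.045), from 506 and 471 to 469 and 397 FPKM. Without F replicate 2 the adjusted p was 0.67 for Rpl31, 0.075 for Rpl36 and 0.055 for Rpl11. With the reads of its copy Rpl31-ps12 added, Rpl31 had an adjusted p of 0.17.

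Rps15a of the small subunit was the 1 gene called higher in F, at 73.3 and 64.8 FPKM against 60.9 and 57.0 in G (log2 fold change 0.25, SE 0.05, adjusted p = 0.00038). Its counts were fractional in all 8 samples and may share reads with Rps15a-ps4 and Rps15a-ps6, whose own rows were at 58.8 to 72.5 and 98.8 to 118 FPKM in these 4 samples. With the reads of these copies added, the log2 fold change was 0.16 (adjusted p = 0.017).

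The number of genes called lower depended on single libraries. It was 3 without G replicate 1 (with 3 called higher), 16 without G replicate 2, 11 without F replicate 1 and 2 without F replicate 2. Data were also simulated from each gene's mean over all 8 samples and the depths of these samples, with changes planted in F. For F against G, edgeR recovered 27 of 50 planted 1.2-fold changes and 1 of 50 planted 1.1-fold changes. The simulation gave all genes the same spread and held no shift shared by genes of a replicate, unlike the replicates of G and F here. The planted genes were drawn from all but the genes of low count, and not from levels like those of the ribosomal protein genes alone.

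With 2i added to cells on feeders in serum, ribosomal protein mRNAs were higher in F2i than in F for a part of the genes. In F2i, 25 of the 75 genes (33.3%) were called higher than in F and 0 were called lower (edgeR, adjusted p under 0.05), against 27.3% higher and 27.4% lower among all genes tested. The share called higher was near that of all genes, and the share called lower was below it. Without adjustment (p under 0.05), 0 were lower by edgeR, 0 by DESeq2 and 2 by limma. None changed by 2-fold, against 13.4% of all genes in either direction. The log2 fold changes were from -0.08 to 0.33 with a median of 0.09, and 64 of 75 were positive. The median was 0.048 when scaled to total counts, 0.051 with limma and 0.051 without F replicate 2. The large subunit had 16 of 46 called higher and the small subunit 9 of 29.

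Rps24, a small-subunit protein whose gene is mutated in Diamond-Blackfan anaemia (an inherited failure of red cell production), was at 941 and 895 FPKM in F and 1135 and 1099 in F2i. It had the largest rise of the 75 in this comparison (log2 fold change 0.33, SE 0.045, adjusted p = 2.3e-06), and its F2i samples were also above both G samples, at 1036 and 945 FPKM. Rps29, a zinc-binding protein of the head of the small subunit, was at 815 and 729 FPKM in F and 891 and 920.0 in F2i (log2 fold change 0.27, SE 0.051, adjusted p = 0.00013). Rps23, which sits at the decoding centre, was at 1692 and 1481 FPKM in F and 1808 and 1784 in F2i, with the 2 groups apart (log2 fold change 0.22, SE 0.049, adjusted p = 0.00071).

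Of the large subunit, Rpl36a and Rpl39 rose the most, and both genes lie on the X chromosome. Rpl36a was at 955 and 817 FPKM in F and 1057 and 1005 in F2i (log2 fold change 0.26, SE 0.057, adjusted p = 0.0006). With the reads of near-identical rows added, its log2 fold change was 0.21 (adjusted p = 0.0029). Rpl39, which lines the peptide tunnel, was at 766 and 692 FPKM in F and 854 and 795 in F2i (log2 fold change 0.21, SE 0.06, adjusted p = 0.0048). Rpl10, the third X-linked gene of the set, which joins the large subunit last in its maturation, was at 1426 and 1362 and 1392 and 1395 FPKM and was not called (log2 fold change 0.04, adjusted p = 0.45). Rpl5 and Rplp2 rose as well, each by 0.18 on the log2 scale (adjusted p = 0.00081 and 0.00087). Rps12 rose by 0.20 (adjusted p = 0.00028), from 1751 and 1792 to 1970.0 and 2001 FPKM.

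F replicate 2 had the lowest ribosomal protein share of the 8 samples, and without it 9 genes were called higher and the adjusted p of Rpl39 was 0.08 and that of Rps6 0.17. Scaling to total counts in place of TMM called 13 higher and 2 lower, and limma called 8 higher. Col1a1 was 248 and 239 FPKM in F2i against 66.0 and 69.6 in F, and the part of feeder RNA in these rises was not tested.

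Without feeder and serum under 2i, most small-subunit genes were higher. In NB2i, 43 of the 75 genes (57.3%) were called higher than in F2i and 0 were called lower (edgeR, adjusted p under 0.05), against 33.3% higher and 30.8% lower among all genes tested. At an unadjusted p under 0.05, edgeR gave 1 lower, DESeq2 gave 2 and limma 0, and DESeq2 called 1 lower after adjustment. Log2 fold changes were from -0.12 to 0.44 with a median of 0.12 against 0.02 for all genes, and none reached 2-fold, against 19.3% of all genes. The small subunit had 22 of 29 genes called higher with a median of 0.18, and the large subunit 21 of 46 with a median of 0.09.

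Rps20, a protein of the head of the small subunit, rose by the largest amount. It was at 209 and 203 FPKM in G, 220.4 and 209 in F, 208 and 218 in F2i and 286 and 290.4 in NB2i, so that both NB2i samples stood above the other 6, which overlapped (log2 fold change against F2i 0.44, SE 0.042, adjusted p = 8.6e-09). Rps26, at the mRNA exit channel, was at 1756 and 1808 FPKM in F2i and 2136 and 2257 in NB2i (log2 fold change 0.31, SE 0.046, adjusted p = 6.2e-06). It was not called in F2i against F, at 1900.0 and 1967 FPKM in F.

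Of the large subunit, Rpl14 was at 646 and 661 FPKM in F2i and 769.5 and 860.3 in NB2i (log2 fold change 0.32, SE 0.057, adjusted p = 4.6e-05). Its counts were fractional in all 8 samples and may share reads with the row Rpl14-ps1, which was at 548 and 521 FPKM in F2i and 725 and 732 in NB2i. Adding these reads to Rpl14 gave a log2 fold change of 0.37 (adjusted p = 2.6e-07).

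Across the steps from F to F2i and from F2i to NB2i, 13 of the 75 genes were called higher in both, 12 only in the first and 30 only in the second, or 17.3%, 16% and 40%. Of all genes tested, 10.7%, 16.7% and 22.7% had these patterns. The difference between the steps was not tested, and both use the F2i samples. Rps12, Rps23, Rps24, Rps29, Rpl5 and Rplp2 were among those called in both. Of the genes followed through every comparison, 4 were called in neither step. Rpl10, Rpl11 and Rpl38 had log2 fold changes from 0.04 to 0.14 in the first step and from -0.01 to 0.05 in the second, and Rpl41 had -0.02 and 0.08.

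**Figure D3:**
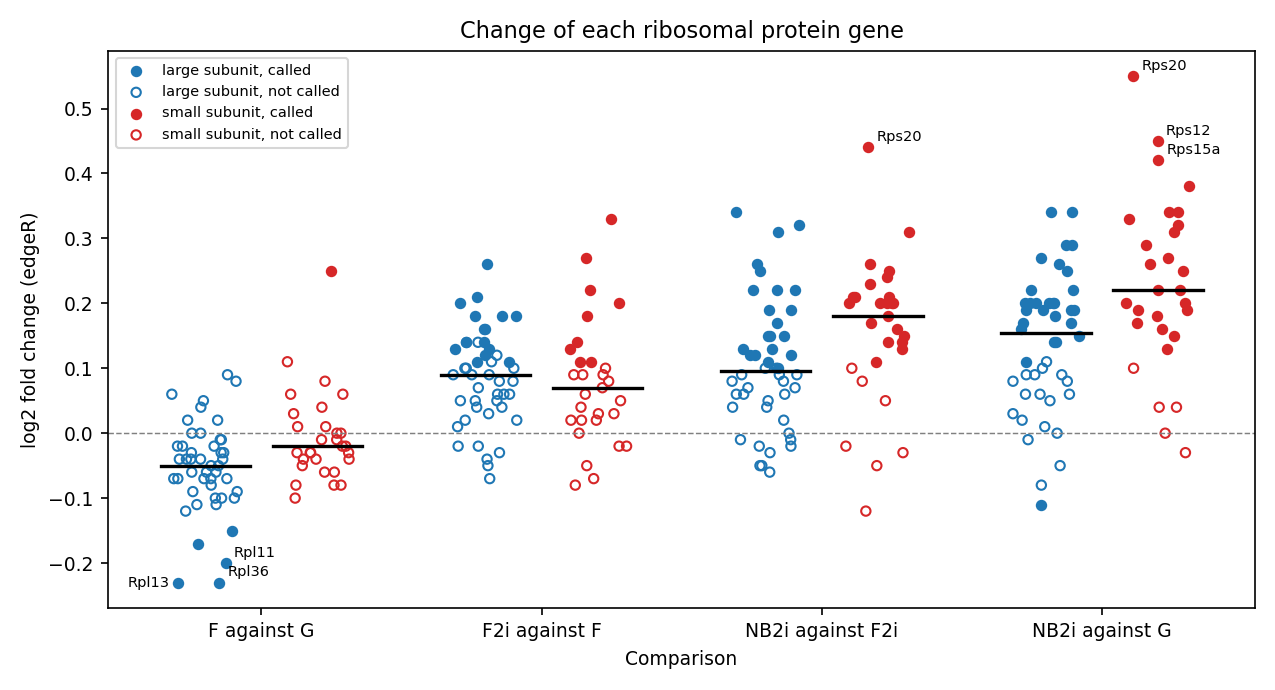
Log2 fold change of each of the 75 genes in the 4 comparisons (edgeR, all 8 samples in 1 fit), with large-subunit genes in blue and small-subunit genes in red. Filled points passed an adjusted p under 0.05, open points did not, and black lines are medians. Small-subunit medians are 0.18 in NB2i against F2i and 0.22 in NB2i against G, above the large-subunit medians of 0.09 and 0.16.

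Between the feeder-free cultures, the ribosomal protein genes were higher in NB2i than in G for most members of both subunits. In NB2i 51 of the 75 (68.0%) were called higher and 1 (1.3%) lower (edgeR, adjusted p under 0.05), against 36.9% and 35.4% of all genes tested. None of the 75 passed 2-fold, which 27.2% of all genes did, and the median log2 fold change was 0.19 with a range from -0.11 to 0.55. The small subunit had 24 of 29 called higher with 0 lower and the large subunit 27 of 46 with 1 lower. On the TMM-scaled CPM, both NB2i samples were above all 6 other samples for 53 of the 75 genes (70.7%), against 28.4% of all genes tested. On FPKM this held for 47 of the 75, for which no share of all genes is given here. Of the 14 fibroblast markers, 3 were called higher and 8 lower in NB2i against G. Col1a1 and the other collagen markers were at or under 2.59 FPKM in all 4 samples, whereas Fn1 went from 98.6 and 95.8 FPKM in G to 358 and 334 in NB2i and Vim from 19.8 and 16 to 58.4 and 60.2. The part of what these genes mark in the result was not tested.

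Rps20 again had the largest rise, at 1.46-fold (log2 fold change 0.55, SE 0.042, adjusted p = 1.3e-10). Its counts were fractional in all 8 samples, and which rows share its reads was not tested. Rps12, of the beak of the small subunit, was at 1846 and 1756 FPKM in G and 2307 and 2401 in NB2i, 1.37-fold higher (log2 fold change 0.45, adjusted p = 2.3e-09). Rps15a was at 60.9 and 57.0 FPKM in G and 74.5 and 75.6 in NB2i (log2 fold change 0.42, adjusted p = 1.6e-07). With the reads of its copies added, the log2 fold change of Rps15a was 0.36 (adjusted p = 1.3e-06). Unlike the steep last step of Rps20, its levels in F and F2i, at 73.3 and 64.8 and 76.5 and 76.2 FPKM, already lay above G. Rps24 was 1.30-fold higher in NB2i (log2 fold change 0.38, adjusted p = 1.5e-07), at 1207 and 1219 FPKM. Rpl14 was 1.27-fold higher (log2 fold change 0.34, adjusted p = 1.7e-05), or 0.46 on the log2 scale with the reads of its copy added.

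Rpl11 was the exception, at 1324 and 1208 FPKM in G, 1131 and 1044 in F, 1124 and 1142 in F2i and 1126 and 1112 in NB2i. It fell by 0.11 on the log2 scale in NB2i against G (SE 0.047, adjusted p = 0.039), and both G samples were above the other 6. Without G replicate 1 the adjusted p was 0.35, and over the single-library omissions 0 to 2 genes were called lower. Its partner Rpl5 went the other way, from 842 and 816 to 895 and 922 FPKM (log2 fold change 0.20, adjusted p = 0.00013). The number of genes called higher was 60 without G replicate 1 and 44 without G replicate 2. Scaled to total counts, 40 were called higher and 3 lower.

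**Figure D4:**
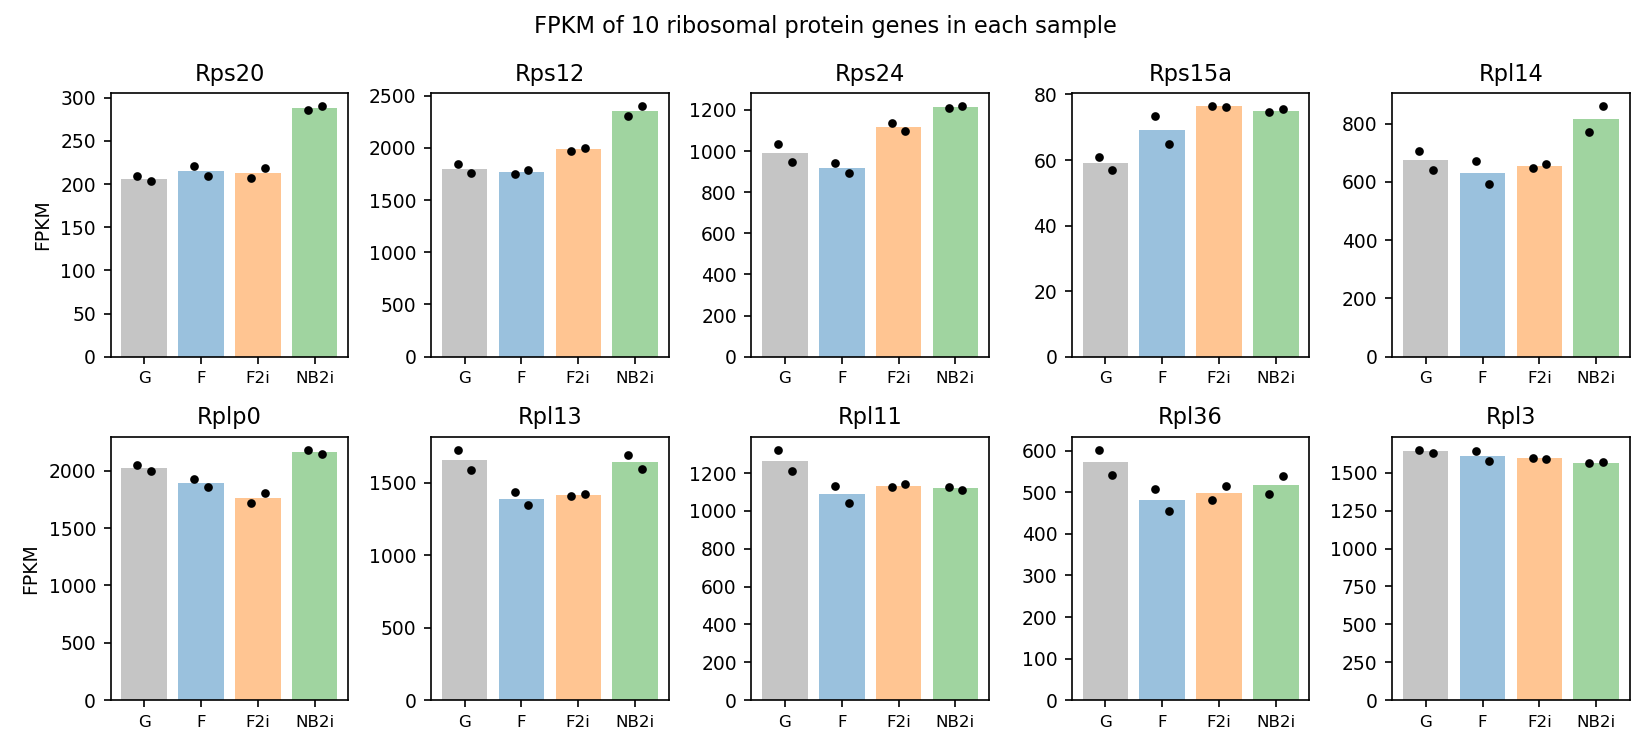
FPKM of 10 ribosomal protein genes in each sample, with bars for the mean of 2 samples, from 0, and points for the samples. Rps20 stands out in NB2i (286 and 290 FPKM against 203 to 220 elsewhere), Rps15a is lowest in G, Rpl11, Rpl13 and Rpl36 are lower in F than in G, and Rpl3 was called in no comparison.

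The stalk proteins Rplp0, Rplp1 and Rplp2, which recruit translation factors to the large subunit, had no call in F against G and were all called higher in NB2i. Rplp0 was at 2045 and 1993 FPKM in G, 1927 and 1855 in F, 1717 and 1803 in F2i and 2184 and 2147 in NB2i. It was not called in F against G or in F2i against F, and it rose by 0.31 on the log2 scale from F2i to NB2i (SE 0.042, adjusted p = 2e-06). Rplp1, at 2665 and 2755 FPKM in F2i, rose by 0.19 to 3083 and 3055 in NB2i (adjusted p = 0.0022). Rplp2 was the 1 stalk gene called in both steps, at 1571 and 1551 FPKM in F, 1729 and 1711 in F2i and 1906 and 1885 in NB2i. The order of the means over the 4 conditions differed among the 3 genes.

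Among the small-subunit genes named for known roles, Rps6 is the substrate of the S6 kinases downstream of mTORC1. Rps6 was at 1152 and 1099 FPKM in G, 1083 and 1036 in F, 1123 and 1106 in F2i and 1240.0 and 1201 in NB2i. It was called higher in F2i against F (log2 fold change 0.11, adjusted p = 0.03) and in NB2i against F2i (0.14, adjusted p = 0.0071). Rps19, the gene most often mutated in Diamond-Blackfan anaemia, was at 1049 and 965 FPKM in G and 1211 and 1216 in NB2i (log2 fold change 0.34, adjusted p = 5.4e-07). Of the 11 genes of that disease in the set, 8 (72.7%) were called higher and 1, Rpl11, lower in NB2i against G, a share near the 68.0% of all 75 genes. Rpsa, which is also known as a laminin receptor, was at 1213 and 1135 FPKM in G, 1240.0 and 1249 in F, 1183 and 1246 in F2i and 1383 and 1387 in NB2i. Its call was in NB2i against F2i (log2 fold change 0.20, adjusted p = 0.0005) and against G (0.31, adjusted p = 1.8e-06).

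The genes best known from work on specialised ribosomes did not move together. Rpl38, which mouse mutants link to the translation of Hox mRNAs, was called in no comparison, at 1027 and 928 FPKM in G, 973 and 838 in F, 944 and 988 in F2i and 867 and 1050.0 in NB2i. Its NB2i samples lay far apart and overlapped every other condition. Rpl10a was at 951 and 982 FPKM in F2i and 1110.0 and 1127 in NB2i and was called higher (log2 fold change 0.22, adjusted p = 0.00014). Rps25, needed for initiation at some internal ribosome entry sites, rose by 0.13 from F to F2i (adjusted p = 0.01) and was at 792 and 788 FPKM in F2i and 773 and 766 in NB2i, with no call. Rpl22, whose paralog Rpl22l1 has a row of its own, was at 265 and 260.2 FPKM in F2i and 285 and 297 in NB2i (log2 fold change 0.15, adjusted p = 0.0042).

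No comparison called 17 of the 75 genes (22.7%), against 9.92% of all genes tested. They included Rpl3, Rpl6, Rpl7a, Rpl8, Rpl9, Rpl10, Rpl26, Rpl27, Rpl27a, Rpl28, Rpl35, Rpl35a, Rpl38, Rpl41 and Rps13, chosen for naming after their values were seen. Rpl3, next to the peptidyl transferase centre, was at 1653 and 1633 FPKM in G, 1646 and 1579 in F, 1595 and 1593 in F2i and 1561 and 1573 in NB2i. Its log2 fold change in NB2i against G was 0.00 with an SE of 0.04.

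Of the 5 most abundant genes, Rps2, Rplp1, Rpl23a and Rps12 were called higher in NB2i against F2i and against G, and Rpl41 was not. Rps2 was at 2961 and 3065 FPKM in F2i and 3677 and 3358 in NB2i (log2 fold change 0.23, adjusted p = 0.00045), and Rpl23a was at 2523 and 2532 and 2760.0 and 2841 FPKM (0.15, adjusted p = 0.002). Rpl41 was at 2458 and 2334 FPKM in G and 2202 and 2356 in NB2i with overlapping groups. Over the 75 genes, the log2 fold change in NB2i against G had a Pearson r of 0.26 with the log of the deposited length and -0.13 with mean FPKM. In F against G these were 0.31 and -0.08, in F2i against F 0.05 and -0.27, and in NB2i against F2i 0.05 and 0.11. They are correlations across genes of the same libraries, which are not independent replicates. The median log2 fold change in NB2i against G was 0.19 for the 43 genes with a pyrimidine run within 20 bases of the annotated start. It was 0.10 for the 12 with a window but no such run, a difference that was not tested. The ranges overlapped, from -0.11 to 0.45 and from -0.05 to 0.34. With and without CCGGAAG the medians were 0.16 and 0.17, and with and without GGGCGG 0.19 and 0.15. For TATAAA they were 0.17 and 0.18, and for AAGATGGC 0.22 and 0.17.

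Rows of cytosolic ribosomal proteins outside the symbol rule, 20 of which were tested, include other parts of the ribosome and paralogs. Of these 20, 4 were called higher and 3 lower in F against G, 8 and 1 in F2i against F, 8 and 5 in NB2i against F2i, and 9 and 1 in NB2i against G. The background over all genes tested was 21.7% higher and 18.5% lower in F against G, and 27.3% and 27.4% in F2i against F. It was 33.3% and 30.8% in NB2i against F2i, and 36.9% and 35.4% in NB2i against G. The 20 rows stood furthest from this background in the genes called lower in F2i against F and in NB2i against G. Rps4x, an X-linked small-subunit protein, was at 1274 and 1220 FPKM in G and 1485 and 1478 in NB2i (log2 fold change 0.32). Rpl39l, the paralog of Rpl39 best known from testis, was at 3.31 and 2.32 FPKM in G, 4.67 and 3.42 in F, 17.4 and 17.7 in F2i, and 2.54 and 2.74 in NB2i. Its log2 fold change was 2.15 from F to F2i and -2.72 from F2i to NB2i (edgeR adjusted p = 4e-11 and 2.2e-12), the only row of a ribosomal protein paralog in these 20 past 2-fold in F2i against F. Rpl10l, the testis paralog of Rpl10, was at 7.11 and 6.84 FPKM in G and 14.8 and 12.3 in NB2i (log2 fold change 1.03, adjusted p = 2.6e-08). Rps27rt, a copy of Rps27, was listed at 0 in 6 samples and had 82.1 expected counts in F replicate 1 and 83.6 in F2i replicate 2, so no fold is given for it although it is among the calls counted.

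Most genes for the assembly of ribosomes were lower in F2i than in F and in NB2i than in G. NB2i and G also differ in medium and coating, and the part of feeder RNA in F2i against F was not tested. Of 49 ribosome biogenesis factors, 29 were called lower and 5 higher in F2i against F, with a median log2 fold change of -0.17, and 28 lower and 8 higher in NB2i against G, with a median of -0.14. These were 59.2% and 57.1% lower, beside 27.4% and 35.4% of all genes tested, which is also the background for the lists that follow, with 27.3% and 36.9% higher. In F against G 7 were called higher and 9 lower, and in NB2i against F2i 12 and 13, shares at or below those of all genes (21.7% and 18.5%, and 33.3% and 30.8%). Nle1, a 60S maturation factor, was at 13.7 ± 0.37 FPKM in F and 8.32 ± 0.35 in F2i (SD, n = 2), a log2 fold change of -0.68. Nop10 of the pseudouridylation particle was at 179 ± 19 FPKM in G and 96.1 ± 1.8 in NB2i (-0.83), whereas Dkc1, the enzyme of the same particle, rose from 81.2 ± 1.7 to 128 ± 2.3 (0.73). For RNA polymerase I and its factors, 6 of 14 were called lower and 1 higher in F2i against F, as in NB2i against G, while in F against G 5 were higher and 1 lower and in NB2i against F2i 1 was higher and 5 were lower. The 42.9% called lower in NB2i against G was near the 35.4% of all genes. Rrn3, the factor that brings the polymerase to rDNA, was at 105 ± 2.4 FPKM in F, 82.7 ± 4.0 in F2i and 61.0 ± 1.3 in NB2i.

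Other TOP mRNAs were split. Of 17 such genes, mostly elongation and initiation factors, 7 were called higher and 3 lower in F2i against F, 6 and 5 in NB2i against F2i, 7 and 6 in NB2i against G, and 0 and 4 in F against G. The 41.2% called higher in NB2i against G was near the 36.9% of all genes. Eef1a1, the elongation factor that delivers tRNA, rose from 6290 ± 6.3 FPKM in F2i to 7260 ± 120 in NB2i (log2 fold change 0.21, adjusted p = 0.00011). Pabpc1, the poly-A binding protein, rose from 901 ± 29 in F to 1070 ± 28 in F2i (0.29, adjusted p = 4.8e-06). Eef1d fell by 0.32 on the log2 scale in NB2i against G.

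The mTORC1 arm and Myc factors, which act upstream of ribosome production, gave mixed counts, with 6 of 17 higher and 4 lower in F against G, 3 and 7 in F2i against F, 5 and 4 in NB2i against F2i, and 5 and 6 in NB2i against G. The last are 29.4% and 35.3%, beside 36.9% and 35.4% of all genes. Myc was at 11.2 ± 0.98 FPKM in G, 7.19 ± 0.14 in F, 2.00 ± 0.29 in F2i and 0.92 ± 0.042 in NB2i, and Mycn at 99.4 ± 1.7, 124 ± 5.2, 44.0 ± 0.66 and 45.2 ± 0.40. Myc was lower in each of the 4 comparisons, with a log2 fold change of -3.54 in NB2i against G. In that comparison the ribosomal protein genes had a median log2 fold change of 0.19. Larp1, the TOP-binding protein, fell by 0.47 on the log2 scale in F2i against F (adjusted p = 2.7e-09), from 89.7 ± 0.19 to 63.3 ± 2.0 FPKM. Rps6kb2, an S6 kinase, rose by 0.62 in NB2i against G (adjusted p = 2.2e-06).

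Genes for the ribosome of mitochondria gave other counts. Of 77 mitochondrial ribosomal protein genes, 2 were called higher and 18 lower in F against G, 7 and 19 in F2i against F, 36 and 3 in NB2i against F2i, and 21 and 21 in NB2i against G. The 46.8% called higher in NB2i against F2i stood beside 33.3% of all genes and 57.3% of the cytosolic set, and the 27.3% in each direction in NB2i against G beside 36.9% and 35.4% of all genes. The medians were -0.07, -0.06, 0.12 and -0.05 on the log2 scale, beside -0.04, 0.09, 0.12 and 0.19 for the cytosolic genes. Mrps27 was at 37.3 ± 1.3 FPKM in F, 26.1 ± 0.59 in F2i and 35.5 ± 2.0 in NB2i, and Mrpl23 at 56.6 ± 7.0, 41.2 ± 0.16 and 60.7 ± 5.0.

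**Figure D5:**
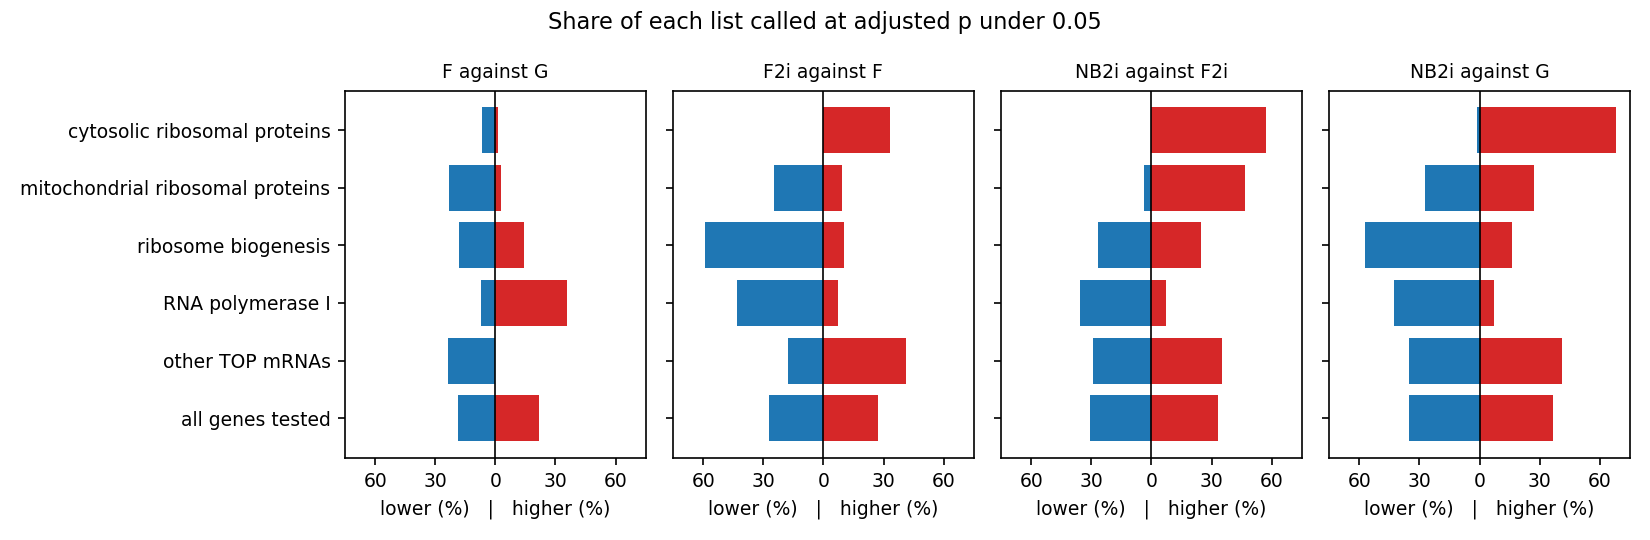
Percent of each gene list called lower (blue, to the left) and higher (red, to the right) at an adjusted p under 0.05 in the 4 comparisons, with all 15287 genes tested as the last bar. Cytosolic ribosomal proteins are called higher in 33.3%, 57.3% and 68.0% in F2i against F, NB2i against F2i and NB2i against G, while 59.2% and 57.1% of the ribosome biogenesis list are called lower in the first and the last of these.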

How the data were processed

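RNA-seq data of 8 samples were used, 2 for each of the 4 conditions, which the series' design text calls biological duplicates of 1 ESC line. The authors purified poly-A RNA, sequenced single-end reads on a BGISEQ-500, aligned them to the mm10 genome by Bowtie2 and quantified genes by RSEM. Versions of both tools are not given in the sources used here. The deposited expected count is the RSEM estimate of reads per gene, not normalized, with 29.8% of values fractional. The deposited FPKM is that estimate divided by the deposited transcript length and by depth. Total counts were from 20129641 to 20664488 per sample. No sample was pooled.

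Rounded expected counts entered edgeR 4.0.16 under R 4.3.3 (TMM, glmQLFit, glmQLFTest), with all 8 samples and the condition in 1 fit, which leaves 4 residual degrees of freedom. The filter asked for 10 counts or more in 2 samples or more, and Benjamini-Hochberg adjustment ran over all 15287 genes left. The biological coefficient of variation was 3.254%, so small changes pass the test on the strength of the model, and p-values measure the spread between these samples. Replicate counts differed by 1.885 to 3.712 chi-square units per degree of freedom over genes at large, above sampling noise. For the ribosomal protein genes the value per gene was larger, at 42.45 in G, 41.15 in F, 14.03 in F2i and 17.86 in NB2i. At a given relative spread this value grows with the count of a gene. The counts of these genes were high, from 3694 to 74916, so the values do not compare relative spread with that of other genes. Each sample was counted as its own. Alternatives were DESeq2 1.42.0, DESeq2 size factors or total counts in edgeR, other filters, only the groups compared, the replicate number as a block, each replicate left out, stricter thresholds, limma 3.58.1 for genes of at least 0.5 FPKM on the log2 scale after adding 1 or 0.1 FPKM, and TMM without the members. After the data were seen, a setting was added that sums the reads of near-identical rows, not only pseudogene copies, into the gene. The scripts were tested on simulated data. Gene lists are described by counts and medians with no set test.

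The member genes and the lists were chosen with earlier results of these data known. Named are, in each comparison, the 5 genes with the largest called rise and fall whose groups do not overlap in FPKM, the 5 highest and lowest by FPKM, 12 genes of known roles, and of each list up to 3 called genes. Some genes that met these rules are not described in each comparison, and some are not reported here. Positions and promoter windows are of RefSeq on GRCm38.p6, the assembly of mm10.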

Additional observations from a re-analysis of the deposited data

How the results depend on the processing

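The direction of the median change of the 75 genes was kept under every alternative except 1. In F against G the median log2 fold change was 0.005 without G replicate 1, against -0.036 with all samples, and it ranged from -0.084 to 0.005 over the single-library omissions. Over these omissions F against G gave 1 to 3 genes higher and 2 to 16 lower, F2i against F gave 9 to 34 higher with medians from 0.051 to 0.108, NB2i against F2i gave 31 to 48 higher and 0 to 1 lower with medians from 0.123 to 0.137, and NB2i against G gave 44 to 60 higher and 0 to 2 lower. Scaled to total counts, F2i against F gave 13 higher and 2 lower with a median of 0.048, NB2i against F2i 1 lower, and NB2i against G 3 lower with a median of 0.119. With limma on FPKM and either pseudocount, F2i against F gave 8 higher with a median of 0.051 and NB2i against G 2 lower with a median of 0.12. In NB2i against F2i, DESeq2 and its size factors gave 1 lower with a median of 0.106, the filter of 10 counts in every sample 2 lower with 0.089, and the fit of only those 2 groups 2 lower with 0.101. With no filter 0 genes were lower in NB2i against G. At an adjusted p under 0.01, 15 were higher in F2i against F and 0 lower in NB2i against G. With a 2-fold threshold added, 0 of the 75 were called in any comparison. The cause of these differences was not tested. With the ribosomal protein rows outside the symbol rule added, the share of counts was 7.60% in G, 7.33% in F, 7.52% in F2i and 8.24% in NB2i. As a share of summed FPKM, the 75 genes alone made up 19.3%, 18.9%, 19.3% and 20.6%.

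Replicate numbers are shared by the groups, but deviations of same-numbered samples correlated from -0.0772 to 0.0613 (mean -0.0266), so the numbers were not taken as pairs. With the replicate number as a block, 1 gene was higher and 5 lower in F against G, 24 and 0 in F2i against F, 42 and 1 in NB2i against F2i, and 52 and 1 in NB2i against G.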
